A study of Mus musculus with 8 samples.

Results

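MicroRNAs (miRNAs) of the miR-193 and miR-365 families were followed in the culture medium of mouse muscle cells: mmu-miR-193a-3p, mmu-miR-193b-3p, mmu-miR-365-3p and mmu-miR-365-2-5p, written without the prefix from here on. They are 4 of the 1881 mouse miRNAs on the array. They were chosen by name, as products of a pair of paralogous gene clusters, and selected on their detection and signal, since some were detected mainly in medium of mixed co-cultures. The values in mixed medium are therefore given as a description. Tests are given for G93A/G93A against WT/WT alone, the contrast the choice used least. They are not free of the choice, least of all for miR-193a-3p, which entered the tested set only through its detection in mixed medium.

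The medium came from primary myocytes of the leg muscle of newborn mice (1 to 3 days old, labelled male), grown in transwells in which a bottom chamber and an insert share medium through pores of 0.4 µm, too fine for cells to pass. The G93A cells came from B6SJL(Tg-SOD1*G93A)1Gur/J mice, which carry human SOD1 with the mutation G93A and develop a disease like amyotrophic lateral sclerosis. The WT cells came from B6SJL(Tg-SOD1)2Gur/J mice, which carry the wild-type human SOD1 transgene. Every group therefore holds a human SOD1 transgene, and medium of non-transgenic cells was not analysed here.

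In G93A/G93A both chambers held G93A cells (n = 3), in G93A/WT the bottom chamber held G93A cells and the insert WT cells (n = 3), and in WT/WT both held WT cells (n = 2). No group was given a drug or other agent. The reverse mix was not analysed here. The medium was collected after 2 days in vitro, and RNA from 600 µl of it was labelled with Cy3 and read on 1 array per sample. The labels call the samples biological replicates but name no litter or culture day, so the tests measure the spread between these samples, part of which may be technical. The labels describe medium with 10% foetal bovine serum and, later, 2% horse serum. Serum carries miRNAs of its own, and cell-free medium was not analysed here. A level in medium also cannot tell more releasing cells from more release per cell.

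A miRNA guides Argonaute proteins to messenger RNAs through its seed, the short run of bases near its 5′ end, and lowers the output of those messengers. The precursor is a hairpin with an arm on each side, and each arm can give a mature miRNA, named 5p or 3p. In mice the miR-193b and miR-365-1 genes form a cluster that is enriched in brown fat and is switched on by Prdm16, a transcriptional regulator of brown fat. In cell culture miR-193b and miR-365 favoured the brown fat fate and held down muscle genes, whereas mice without the cluster were reported to form brown fat. In human breast cancer cells miR-193b represses urokinase, an extracellular protease.

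The mature sequences show which of these miRNAs can share targets and which can be traced to 1 locus. They are RefSeq mature sequences on build GRCm38.p6, matched by name for 7 of 7 arms, written 5′ to 3′ with the seed (bases 2 to 8) in capitals.
miR-193a-3p: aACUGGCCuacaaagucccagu
miR-193b-3p: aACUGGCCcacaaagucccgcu
miR-365-3p: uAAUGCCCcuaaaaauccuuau
miR-365-2-5p: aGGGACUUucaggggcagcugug
miR-365-1-5p: aGGGACUUuugggggcagaugug
Counted from the 5′ end, miR-193b-3p differs from miR-193a-3p at 3 of 22 bases (U9C, A20G and G21C), all outside the seed. Among the RefSeq mouse miRNAs, these 2 shared the seed with each other and with no other. The seed of miR-365-3p was shared with no other entry. The seed of miR-365-2-5p was shared with miR-365-1-5p alone, from which it differs at U10C, G11A and A19C, written from miR-365-1-5p to miR-365-2-5p.

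The 4 miRNAs come from hairpins at 2 loci, all on the plus strand. On chromosome 11, Mir193a lies at chr11:79711969-79712034 and Mir365-2 at chr11:79726400-79726511, 14.4 kb apart, where the RefSeq gene table lists no overlapping gene. The nearest coding genes there are Rab11fip4 and Utp6. On chromosome 16, Mir193b lies at chr16:13449523-13449601 and Mir365-1 at chr16:13453840-13453926, 4.24 kb apart. Both of these overlap the positions of the long non-coding RNA genes Gm32817 and Gm53058, with Mrtfb and Parn as the nearest coding genes.

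Both miR-365 hairpins are shown because they end in the same 3p arm. The capitals mark the arms that are among the 4 miRNAs: both arms of Mir365-2 and the 3p arm of Mir365-1.
Mir365-2: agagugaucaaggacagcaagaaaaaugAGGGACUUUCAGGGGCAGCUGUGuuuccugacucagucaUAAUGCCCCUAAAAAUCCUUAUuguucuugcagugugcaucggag
Mir365-1: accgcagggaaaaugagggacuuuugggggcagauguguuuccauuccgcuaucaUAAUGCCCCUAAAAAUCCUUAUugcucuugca
A signal for miR-365-3p therefore cannot be assigned to either chromosome. The 5p arms differ between the loci, so miR-365-2-5p reports on chromosome 11, as miR-193a-3p does, and miR-193b-3p reports on chromosome 16. Cross-hybridisation between arms that differ at few bases was not tested.

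The array files give a signal per miRNA, in arbitrary intensity units, with its error and a detection flag. The flag was set wherever the signal exceeded 3 times its error. The number of miRNAs detected per array was 470 ± 16.8 for the 3 G93A/G93A arrays, 527 ± 33.5 for the 3 G93A/WT arrays and 456 ± 7.78 for the 2 WT/WT arrays (mean and SD). Signals were scaled to an equal 75th percentile over the 423 miRNAs detected on all 8 arrays, with mean scale factors of 1.15 ± 0.168 in G93A/G93A, 0.760 ± 0.170 in G93A/WT and 1.28 ± 0.216 in WT/WT (SD). The G93A/WT arrays were thus the brightest before scaling. All arrays lay on 1 slide of 2 rows. Row 1 held G93A/WT and WT/WT 1, and row 2 held G93A/G93A and WT/WT 2, so a difference between G93A/G93A and G93A/WT cannot be told apart from the row except through 1 WT/WT array in each.

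Of the muscle marker list, 4 or 5 of 6 miRNAs were detected on every array, with summed scaled signals of 4094 to 5063 in G93A/G93A, 4341 to 5258 in G93A/WT and 4522 to 5194 in WT/WT. On that list miR-208b-3p was detected on no array, and miR-499-5p on 1 array only, of G93A/WT. Of the marker sums of other cell types, only the epithelial one separated every group from the others. The remaining sums overlapped between some groups. The epithelial markers' summed scaled signal was 0 to 5.36 in G93A/G93A, where at most 1 of 7 was detected, 61.2 to 85.0 in G93A/WT and 138 to 166 in WT/WT, where 5 of 7 were detected. The fibroblast and mesenchyme markers, 4 of 5 detected on every array, summed to 343 to 429.7 units in G93A/G93A, 415 to 553 in G93A/WT and 475 to 517 in WT/WT. The blood cell markers, 2 of 6 detected on every array, summed to 931 to 1396 units in G93A/G93A, 1255 to 1437 in G93A/WT and 943 to 1025 in WT/WT. Of the endothelial markers 1 of 2 was detected on every array, at 93.1 to 101 units in G93A/G93A, 87.4 to 113 in G93A/WT and 109 to 119 in WT/WT. The part of other cell types in the differences below was not tested.

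miR-193a-3p, the chromosome 11 partner of the miR-193 pair, was near the limit of detection. It was detected on no G93A/G93A array and on all 3 G93A/WT arrays, at 2.95, 2.72 and 2.51 scaled units. In WT/WT it was detected on WT/WT 1 at 4.18 units and not on WT/WT 2. The single WT/WT value was thus above every G93A/WT value, and the detected arrays were the 4 arrays of slide row 1.

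The margin of that detection was narrow. Its signal was 3.07, 4.14 and 3.13 times its error on the G93A/WT arrays and 3.17 times on WT/WT 1. On the arrays without detection, 3 times the smallest error seen for this miRNA corresponds to 3.18, 3.60 and 2.68 scaled units in G93A/G93A and 3.11 units on WT/WT 2. Those estimated limits lie around or above the values detected in G93A/WT. A level like that of G93A/WT could therefore have gone undetected on most of the dimmer arrays.

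With undetected values set to a floor of 1.52 units, G93A/G93A minus WT/WT came to -0.73 ± 0.37 on the log2 scale (SE, 95% interval -1.61 to 0.15). This did not pass limma's test (adjusted p = 0.258). Leaving out WT/WT 2 gave -1.46, past the threshold, but that sets 1 array against 3 values at the floor, which have no spread of their own, so the lone array was assumed to vary like the other groups and the call carries no weight. Leaving out WT/WT 1, or comparing within the slide rows by a block, gave 0, since only values at the floor were then compared. The difference was -1.23 and -0.23 with the floor at 0.5 and 2 times its value and -1.96 in the authors' values. Against each array's lowest detected signal G93A/G93A was 1.52-fold lower than WT/WT and 1.65-fold lower than G93A/WT. The first of these ratios counts WT/WT 2 at the floor, and neither is a strict bound. Against the estimated limits of miR-193a-3p itself the same 2 ratios were 0.803 and 0.869, which give no fold. The mixed medium differed from WT/WT by 0.11 on the log2 scale, far less than the SD of 1.03 between the 2 WT/WT arrays.

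miR-365-2-5p, the 5p arm of the chromosome 11 miR-365 hairpin, was detected only on arrays of medium from G93A cells, alone or mixed, and not on all of them. It had 8.37 and 4.34 scaled units on G93A/G93A 1 and 2 and was not detected on G93A/G93A 3. On the G93A/WT arrays it had 3.80, 5.80 and 5.96 units, and it was detected on neither WT/WT array. The G93A/G93A and G93A/WT values overlapped, and 5 of the 6 arrays with G93A cells carried it.

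Its signal was 5.27 and 3.21 times its error in G93A/G93A and 3.82, 6.17 and 5.18 times in G93A/WT. The estimated limits were 3.01 units on G93A/G93A 3 and 4.45 and 3.50 units on the WT/WT arrays. The limits in WT/WT therefore lie above the lowest detected value of G93A/WT or close to it.

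G93A/G93A minus WT/WT gave a log2 difference of 1.33 ± 0.64 (SE, 95% interval -0.19 to 2.84), which did not pass limma's test (adjusted p = 0.237). Without G93A/G93A 3, the one such array on which miR-365-2-5p was undetected, the difference was 1.99 and passed (limma, adjusted p = 0.0332). Both WT/WT values were at the floor and added no spread. The estimated limit on WT/WT 1 (4.45 units) also lies above the value on G93A/G93A 2 (4.34 units), so the call carries no weight. The difference was 1.99 and 0.66 with the floor at 0.5 and 2 times its value and 2.92 in the authors' values, none of which passed. Within the slide row it was again 1.33 (adjusted p = 0.593), as both WT/WT arrays were at the floor. Against the lowest detected signal G93A/G93A was 2.20-fold higher than WT/WT, with G93A/G93A 3 counted at the floor, so this is no strict bound. The ratio against the estimated limits of miR-365-2-5p itself was 0.964, which gives no fold. For G93A/WT against WT/WT these values were 2.94-fold and 1.29.

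Detection that favoured mixed medium was common on these arrays. Of the 163 miRNAs detected on some but not all arrays, 140 were detected on a larger share of the G93A/WT arrays than of the other arrays, and 23 on a smaller share. The detection counts per group of miR-193a-3p were shared by 1 other miRNA, and those of miR-365-2-5p by 3 others.

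**Figure D1:**
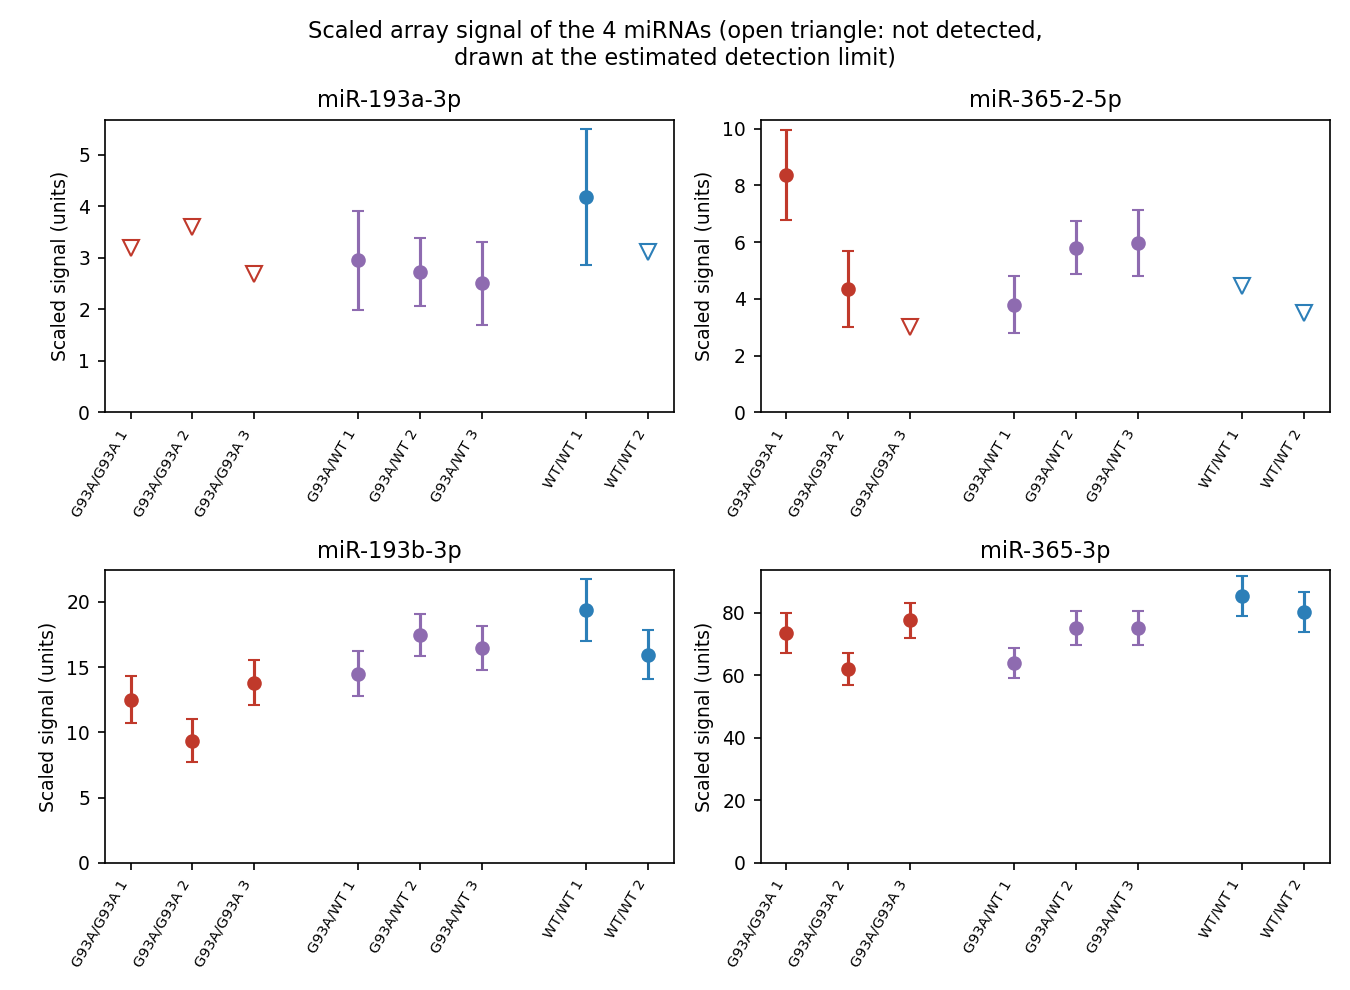
Scaled signal in intensity units (vertical axis, linear, from 0) of each miRNA on the 8 arrays, in G93A/G93A (red), G93A/WT (purple) and WT/WT (blue). Filled circles are detected values with the scanner's error, and open triangles are undetected arrays drawn at the estimated limit of that miRNA. miR-193a-3p and miR-365-2-5p sit at or near those limits, whereas miR-193b-3p (9.36 to 19.4 units) and miR-365-3p (62.1 to 85.5 units) were detected on every array.

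miR-193b-3p, the chromosome 16 partner with the seed of miR-193a-3p, was detected on all 8 arrays at 5.70 to 11.0 times its error. It had 12.5, 9.36 and 13.8 scaled units in G93A/G93A, 14.5, 17.5 and 16.5 units in G93A/WT, and 19.4 and 16.0 units in WT/WT. Every G93A/G93A value lay below every value of the other groups, and the G93A/WT and WT/WT values overlapped. The means were 11.9 ± 2.29 units in G93A/G93A (n = 3), 16.2 ± 1.52 in G93A/WT (n = 3) and 17.7 ± 2.40 in WT/WT (n = 2), each with its SD.

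On the log2 scale G93A/G93A differed from WT/WT by -0.58 ± 0.19 (SE, 95% interval -1.04 to -0.13), a ratio of 0.668. The difference exceeded the spread between replicates at an unadjusted p of 0.0194 and did not pass after adjustment over 538 miRNAs (limma, adjusted p = 0.108). It was negative under 20 of 20 alternative settings, between -0.72 and -0.42, and passed under none of them (adjusted p 0.0641 to 0.831). The floors, detection filters, trend and robust variance, and leaving out a G93A/WT array cannot change this difference. The slide row fits below and leaving out WT/WT 1 all gave -0.44, so the 20 settings are not separate checks. With the slide row as a block, which leaves WT/WT 2 as the one array to set G93A/G93A against, it was -0.44 (adjusted p = 0.393). The fit within row 2 gave the same difference (adjusted p = 0.562).

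miR-365-3p, the arm that both loci encode, was detected on all 8 arrays. Its scaled signals were 73.6, 62.1 and 77.6 in G93A/G93A, 64.1, 75.05 and 75.2 in G93A/WT, and 85.5 and 80.3 in WT/WT. Both WT/WT values lay above all others, and the G93A/G93A and G93A/WT values overlapped. The means were 71.1 ± 8.04 in G93A/G93A, 71.4 ± 6.38 in G93A/WT and 82.9 ± 3.67 in WT/WT (SD).

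For miR-365-3p, G93A/G93A minus WT/WT gave a log2 difference of -0.23 ± 0.14 (SE, 95% interval -0.55 to 0.10). It did not pass limma's test (adjusted p = 0.340), and within the slide row it was -0.18.

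Of these miRNAs, 0 of 4 passed limma's test between G93A/G93A and WT/WT, where 8.55% of the 538 tested miRNAs passed (3.72% higher and 4.83% lower), and 1 of 4, miR-193b-3p, had an unadjusted p under 0.05, as did 26.6% of the tested miRNAs. The 2 miRNAs detected on every array each had all G93A/G93A values below all WT/WT values, as did 22.7% of the tested miRNAs, and 18% had all of them above. Over every tested miRNA the median log2 difference came to -0.01.

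**Figure D2:**
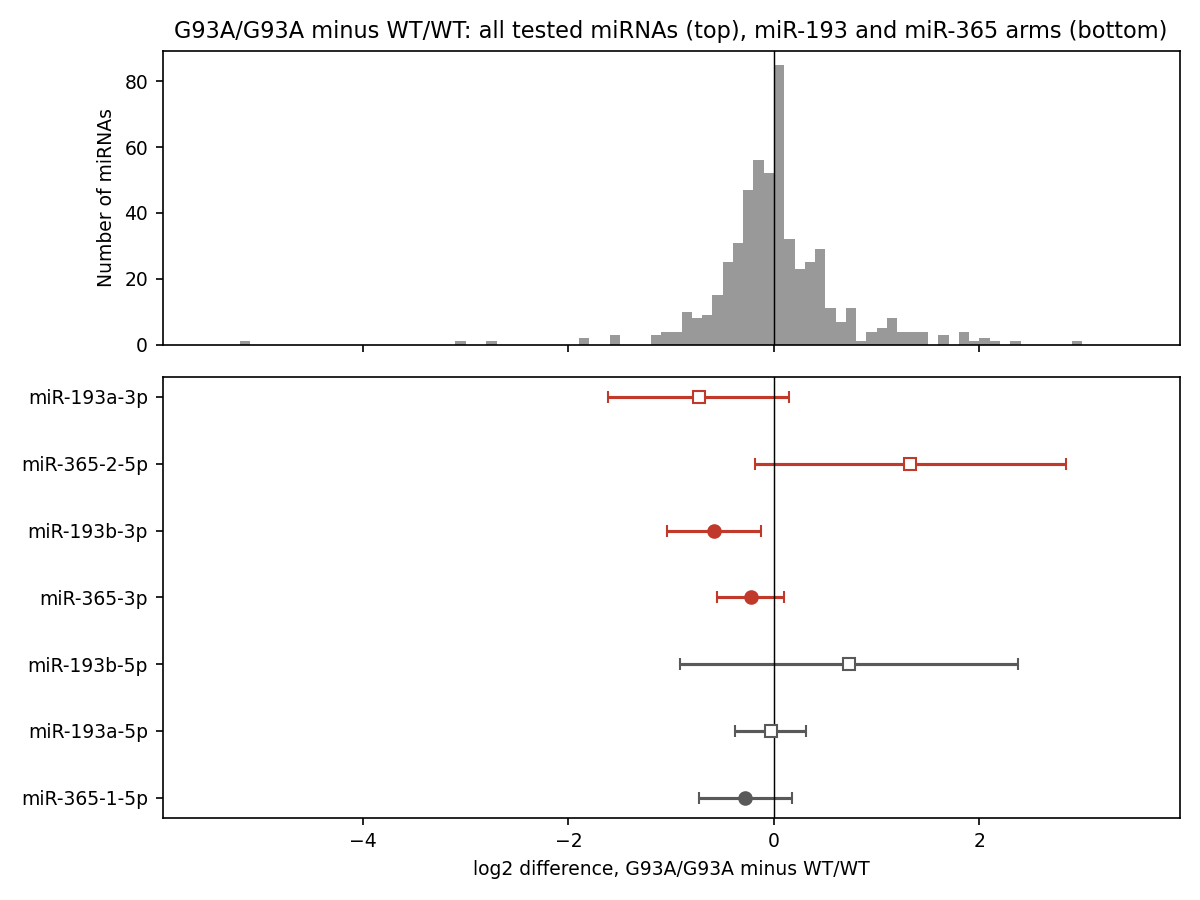
The log2 difference between G93A/G93A and WT/WT (horizontal axis, G93A/G93A minus WT/WT), as a histogram over the 538 tested miRNAs (top) and per arm of the 4 hairpins with limma's 95% interval (bottom). Red marks the 4 miRNAs and grey their partner arms, filled circles were detected on all 8 arrays, and open squares had arrays at the floor. The interval of miR-193b-3p (-1.04 to -0.13) lies below 0, and those of the other arms include 0.

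For the well detected miRNAs the mixed medium gave the following differences on the log2 scale. For miR-193b-3p, G93A/WT minus WT/WT was -0.13 and G93A/G93A minus G93A/WT was -0.46. For miR-365-3p the same differences were -0.22 and -0.01. Whether the 2 miRNAs differ in this was not tested, and within slide row 1 both had the same difference between G93A/WT and WT/WT (-0.26). These contrasts share arrays with each other and entered the choice of the miRNAs, so the values stand without a test.

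Groups without overlap are frequent at this size. Between G93A/WT and WT/WT, 26% of the tested miRNAs were lower without overlap, as miR-365-3p was, and 19.3% higher, as miR-365-2-5p was with its WT/WT values at the floor. Between G93A/G93A and G93A/WT, 19.1% were lower without overlap, as miR-193b-3p and, at the floor, miR-193a-3p were. limma called 3.9% of the tested miRNAs between G93A/WT and WT/WT (3.16% higher, 0.743% lower) and 10.6% between G93A/G93A and G93A/WT (5.39% higher, 5.2% lower). Of the tested miRNAs 15.6% were higher without overlap in G93A/G93A than in G93A/WT. With the slide row as a block, G93A/G93A minus G93A/WT was -0.18 for miR-193b-3p and 0.62 for miR-193a-3p. Within row 1, G93A/WT minus WT/WT was -0.62 for miR-193a-3p.

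The other arms of the hairpins gave 1 well detected miRNA. miR-365-1-5p, the chromosome 16 counterpart of miR-365-2-5p, had 81.5, 67.1 and 52.0 scaled units in G93A/G93A, 70.5, 63.5 and 65.4 units in G93A/WT, and 75.01 and 84.8 units in WT/WT. The G93A/G93A values spanned the G93A/WT and most of the WT/WT range. G93A/G93A minus WT/WT came to -0.28 ± 0.19 (SE), which did not pass limma's test (adjusted p = 0.396).

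The pair of 5p arms with the seed GGGACUU thus differed in detection: miR-365-1-5p was detected on every array and miR-365-2-5p on 5. Levels of different probes are not compared here. miR-193b-5p was detected on G93A/G93A 1 at 6.95 units, on the G93A/WT arrays at 3.05, 5.62 and 2.49 units, and on neither WT/WT array. Like miR-193a-3p, miR-193b-5p entered the tested set only through its detection in mixed medium, which limits its test. With that limit, G93A/G93A minus WT/WT came to 0.73 ± 0.69 (SE, limma adjusted p = 0.570).

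That difference rests on 1 detected array, and against the estimated limits of miR-193b-5p itself the ratio was 0.634, so no direction is given. In G93A/WT it was 2.02-fold higher than in WT/WT against the lowest detected signal. Against its own estimated limits this ratio was 0.879, which gives no fold. miR-193a-5p was detected on G93A/WT 2 at 2.03 units and on WT/WT 2 at 1.59 units, and nowhere else.

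Likeness between miRNAs was measured as the root mean square difference of their centred log2 profiles over the 8 arrays, where 0 is an identical course. Closest to miR-193b-3p were miR-337-5p (0.123), miR-3963 (0.145) and miR-431-5p (0.161), with a median of 0.387 over all tested miRNAs. limma called these 3 as lower in G93A/G93A against WT/WT, with differences of -0.58, -0.83 and -0.46 and adjusted p of 0.0234, 0.0211 and 0.0489. The likeness was found on these same arrays, so their calls say nothing further about miR-193b-3p.

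Closest to miR-365-3p were miR-7036a-5p (0.115), miR-495-3p (0.121) and miR-16-5p (0.128), with a median of 0.293. A flat course would lie at 0.146 from miR-365-3p, little farther than these. For miR-193a-3p the closest were miR-706 (0.250), miR-496a-3p (0.338) and miR-542-5p (0.339), with a median of 0.568. For miR-365-2-5p they were miR-193b-5p (0.572), miR-5122 (0.583) and miR-7212-5p (0.631), with a median of 0.990. The neighbours of miR-365-2-5p, like it, hold values at the floor, which are equal by construction.

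**Figure D3:**
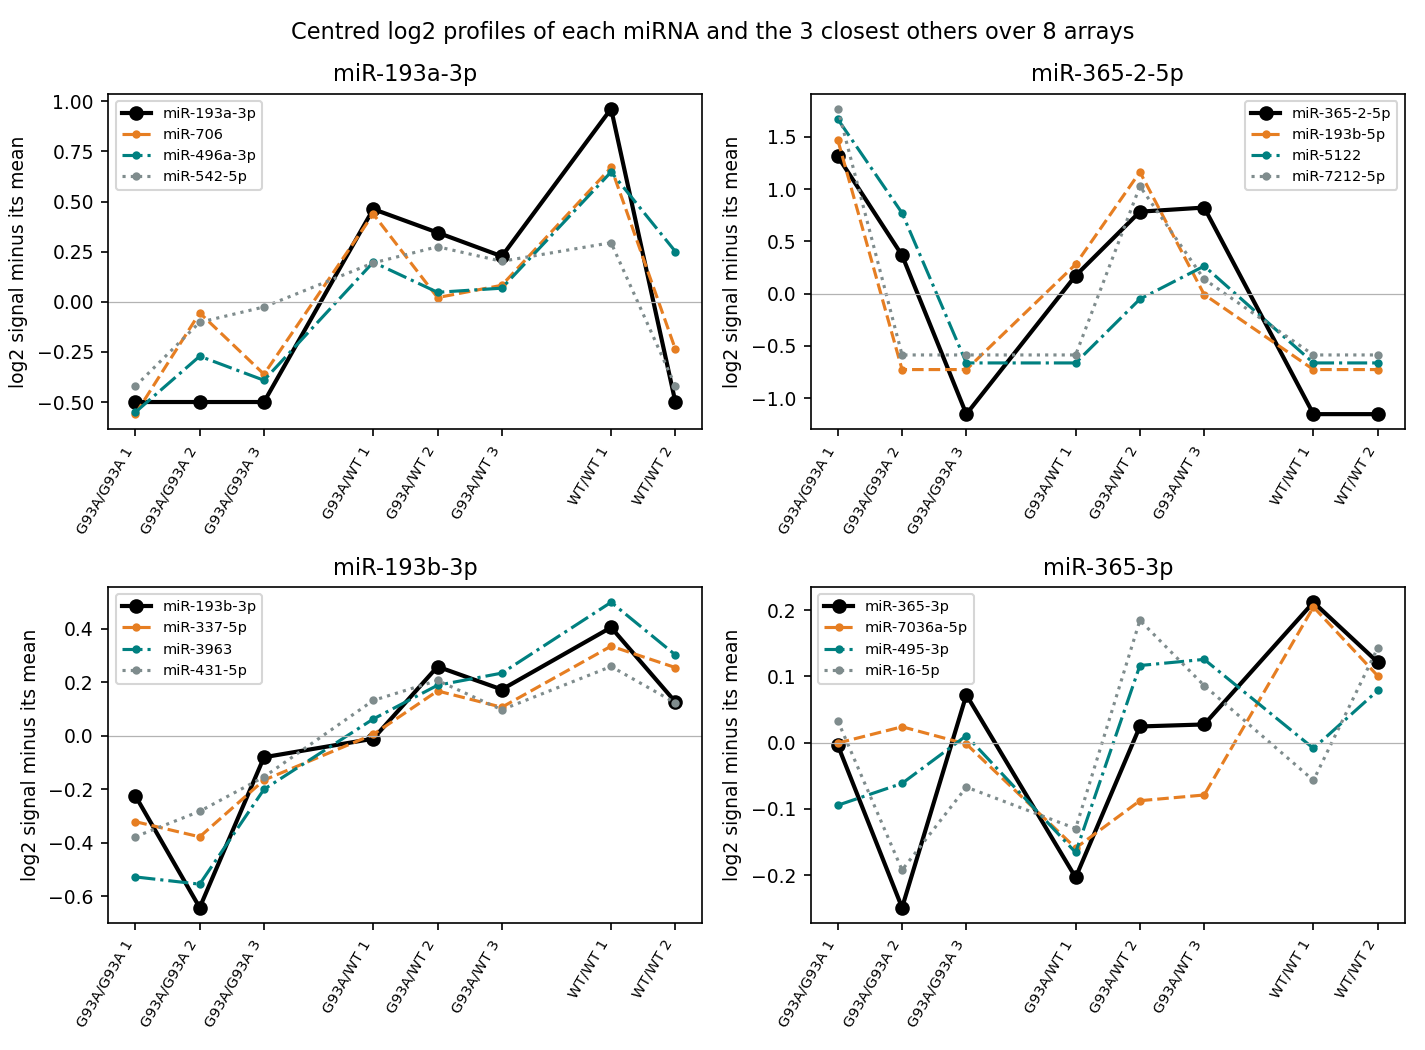
Centred log2 signal (each miRNA's log2 scaled signal minus its mean over the 8 arrays, vertical axis) of each of the 4 miRNAs (black) and the 3 others with the closest course (coloured, dashed). The vertical ranges differ between panels. miR-193b-3p and its neighbours lie lowest on the G93A/G93A arrays, and flat stretches in the miR-193a-3p and miR-365-2-5p panels are undetected values at the floor.

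Of the chosen miRNAs, 2 were detected on every array, and miR-365-3p was the 14th closest to miR-193b-3p among the 537 other tested miRNAs (0.217). The partner arm miR-365-1-5p, also detected on every array, was the 212th closest to miR-193b-3p (0.354). To miR-365-3p it was the 175th closest (0.240). A flat course would lie at 0.305 from miR-193b-3p and at 0.146 from miR-365-3p. The distance of 0.217 is below the first of these and above the second. Those of miR-365-1-5p are above the flat course of the miRNA they were ranked for. Beyond the closest profiles above, ranks that involve miR-193a-3p, miR-365-2-5p or miR-193b-5p are not given. Their profiles are set in part by the floor, which limits those closest profiles too.

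The miRNAs known to act in brown or beige fat formation, or in the choice between brown fat and muscle, gave the setting of the clusters' known role. Of 19 such miRNAs besides the 4, 15 were tested. Between G93A/G93A and WT/WT 2 of the 15 were lower and 0 higher by limma's test, beside 4.83% lower and 3.72% higher over all tested miRNAs. An unadjusted p under 0.05 was found for 5 of the 15, beside 26.6% of all tested miRNAs. The list's median difference was -0.25, beside -0.01 over all tested miRNAs.

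The 2 were miR-378a-3p, which favours brown fat expansion in mice, and miR-203-3p, which is also one of the epithelial markers above. miR-378a-3p differed by -0.65 ± 0.15 (SE, adjusted p = 0.0433). miR-203-3p was detected on no G93A/G93A array and was 7.73-fold lower than in WT/WT against the lowest detected signal (limma, adjusted p = 0.00301). Against its own estimated limits the ratio was 3.53. The other 13 miRNAs did not pass.

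Between G93A/WT and WT/WT limma called 0 of the 15, beside 3.9% of all tested miRNAs, and 2 had an unadjusted p under 0.05, beside 24.5%. The median was -0.03, beside 0.04 over all tested miRNAs. Between G93A/G93A and G93A/WT 2 were lower and 0 higher, beside 5.2% and 5.39% of all tested miRNAs. These were miR-26a-5p, which promotes myoblast differentiation, at -0.62 ± 0.14 (SE, limma adjusted p = 0.0285), and again miR-203-3p (limma, adjusted p = 0.00519). miR-203-3p was 3.27-fold lower against the lowest detected signal and 1.50-fold lower against its own estimated limits. The median was -0.23, beside -0.10 over all tested miRNAs.

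The muscle miRNAs, which promote or accompany muscle differentiation, did not pass the test between G93A/G93A and WT/WT. Their differences were 0.18 for miR-133a-3p, 0.25 for miR-133b-3p, -0.27 for miR-206-3p and 0.08 for miR-1a-3p, with adjusted p of 0.829, 0.483, 0.351 and 0.817 by limma.

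The authors' own processed values of the same arrays were normalized by an unstated method. For miR-193b-3p they gave a like picture between G93A/G93A and WT/WT, but not for the mixed medium. For miR-193b-3p the authors' values were 14.2, 9.72 and 14.2 in G93A/G93A, 13.4, 15.3 and 15.2 in G93A/WT, and 19.4 and 17.6 in WT/WT. Both WT/WT values again lay above all G93A/G93A values. In these values G93A/WT lay below WT/WT and overlapped G93A/G93A. For miR-365-3p the authors' values were 78.5, 61.4 and 78.9 in G93A/G93A, 63.3, 73.8 and 77.9 in G93A/WT, and 80.6 and 78.9 in WT/WT, so G93A/G93A and WT/WT overlapped there, unlike the scaled signals.

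The dim miRNAs looked different there. For miR-193a-3p the authors' values were 0.260, 0.298 and 0.267 in G93A/G93A, 3.15, 0.335 and 0.559 in G93A/WT, and 4.23 and 0.271 in WT/WT. Of the miRNAs that the authors' table holds, all those undetected on an array had a value under 1 there, up to 0.781. On G93A/WT 2 and 3 the detected miR-193a-3p was also under 1. On G93A/WT 2 its value was above all undetected ones of that array, and on G93A/WT 3 the table holds no undetected miRNA. The numbers of detected miRNAs with an authors' value under 1 were 4, 26 and 33 on the G93A/WT arrays, at most 1 on a G93A/G93A array and 0 on the WT/WT arrays.

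For miR-365-2-5p the authors' values were 7.74, 4.72 and 0.219 in G93A/G93A, 3.63, 4.20 and 0.887 in G93A/WT, and 0.310 and 0.224 in WT/WT. G93A/WT 3, detected at 5.96 scaled units, was under 1 and above every undetected value in the table.

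**Figure D4:**
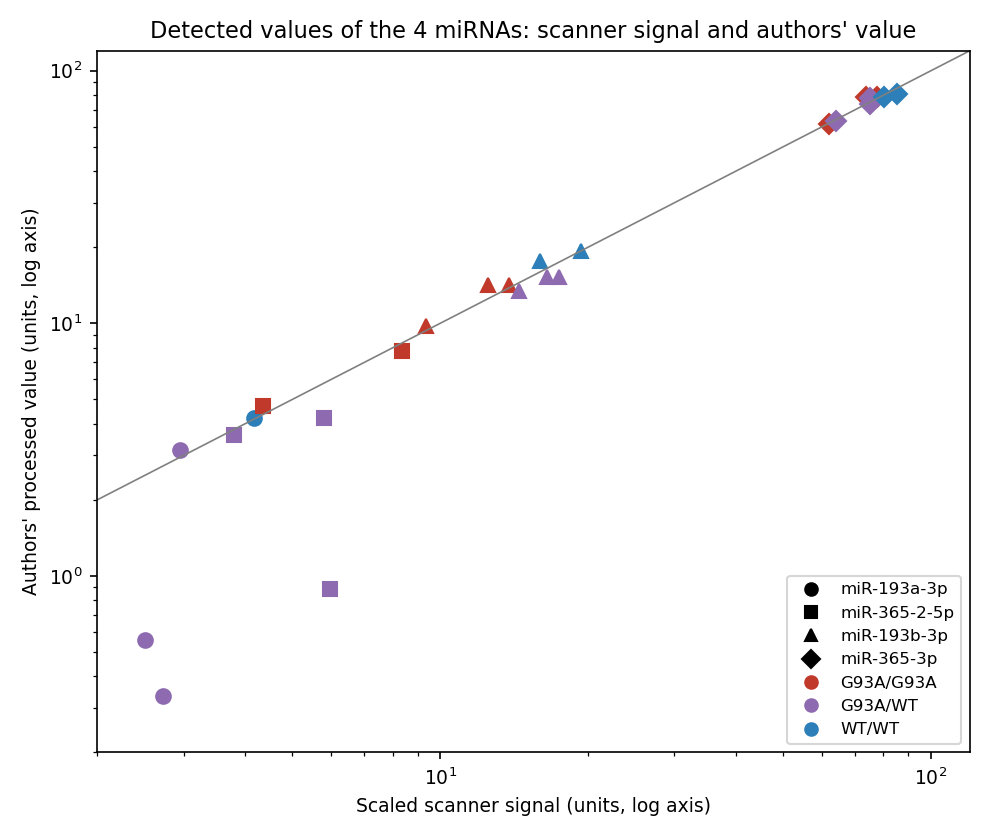
Detected values of the 4 miRNAs, one point per array, as the scaled scanner signal (horizontal, log axis) and the authors' processed value (vertical, log axis), both in intensity units, coloured by G93A/G93A (red), G93A/WT (purple) and WT/WT (blue). The line marks equal values. The bright miRNAs lie near the line, and points of miR-193a-3p (0.335 and 0.559) and miR-365-2-5p (0.887) from G93A/WT fall below 1.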

How the data were processed

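The deposited array files give, per the file headers, a linear total gene signal (an intensity) per mouse miRNA beside an error and a detection flag, and list undetected miRNAs at 0.1. A deposited table holds the authors' processed intensity values of the same 8 arrays; the sources used here do not give its normalization or the scanner software's settings. Groups came from the labels, and slide positions from the deposited files' names. Signals were scaled to an equal 75th percentile over the 423 miRNAs detected on all 8 arrays, floored at 1.52 units (log2 0.60), which is the median of the 8 arrays' lowest detected signals, and taken to log2. The 21 control features were left out. The 538 miRNAs detected on at least 2 arrays were fitted in R 4.3.3 by lmFit and eBayes of limma 3.58.1 (3 groups in 1 fit), with Benjamini-Hochberg adjustment over all 538 and a threshold of 0.05. All 4 named miRNAs passed that filter, which 2 of them did with arrays at the floor. The fitting steps were tested on simulated data. An adjusted p is from this fit unless an array left out, a block or a fit within a slide row is named beside it, and then from that fit. An SE is limma's moderated standard error.

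A fold against a group without detection sets the brighter group's mean log2 signal against the mean log2 of the undetected arrays' lowest detected signals. An undetected array of the brighter group was counted at the floor. Such a fold is no strict bound, since a dim miRNA can have a higher limit of its own. The ratio was therefore also taken against 3 times that miRNA's smallest error, a choice made after seeing the data. No interval from counts applies to arrays, and the 2 or 3 arrays per group limit the precision. The alternatives were other scalings, floors and detection filters, the authors' values, the slide row or the replicate number as a block, fits within a slide row, limma with trend and robust variance, and leaving out each array.

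The miRNAs, lists and tests were chosen with earlier results of these data known. Named were the 4 miRNAs, the other arms of their hairpins, the 3 nearest profiles of each, list members past the test, and miR-133a-3p, miR-133b-3p, miR-206-3p and miR-1a-3p. Sequences and gene positions are from RefSeq, build GRCm38.p6.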

Additional observations from a re-analysis of the deposited data

How the results depend on the processing

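With 2 or 3 arrays per group, and values of the dim miRNAs at the floor, differences of miR-193a-3p and miR-365-2-5p depend on the floor and on single arrays. Between G93A/G93A and WT/WT miR-193a-3p ranged from -1.46 (without WT/WT 2, past the threshold but resting on 1 array against floor values) to 0 (without WT/WT 1) when each array was left out, and with a slide row block it was 0, where only arrays at the floor are compared. miR-365-2-5p ranged from 0.76 to 1.99 (without G93A/G93A 3, limma adjusted p = 0.0332, past the threshold but against WT/WT values at the floor). Leaving out arrays gave -0.72 to -0.42 for miR-193b-3p and -0.29 to -0.13 for miR-365-3p. Over all 20 alternatives both stayed negative and uncalled (miR-365-3p -0.29 to -0.06). Several of these settings, such as the floors, cannot change the difference of a miRNA detected on every array. For the mixed medium the cause of each change below was not tested, except that with no scaling the median of all miRNAs itself moved to 0.79 (G93A/WT minus WT/WT) and -0.68 (G93A/G93A minus G93A/WT), so those values follow the brightness of the arrays.

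For G93A/WT minus WT/WT, miR-193a-3p was -0.69 with quantile normalization. miR-193b-3p was 0.64 without scaling and -0.34 in the authors' values. miR-365-3p was -0.33 with median scaling, -0.10 with quantile normalization and 0.55 without scaling. miR-365-2-5p was 2.17 without scaling, 2.75 and 0.75 with the floor at 0.5 and 2 times its value, and 3.17 in the authors' values. Leaving out arrays gave -0.62 to 0.84 for miR-193a-3p, -0.26 to 0.01 for miR-193b-3p, -0.26 to -0.14 for miR-365-3p and 1.63 to 1.96 for miR-365-2-5p. For G93A/G93A minus G93A/WT, miR-193a-3p was -0.12 with quantile normalization, -1.26 without scaling, -1.84 and 0 with the lower and the higher floor, -1.61 in the authors' values and 0.62 with the slide row as a block. miR-193b-3p was -1.06 without scaling, -0.22 in the authors' values and -0.18 with the slide row, and miR-365-3p was -0.62 without scaling. Leaving out arrays gave -0.90 to -0.79, -0.57 to -0.29, -0.09 to 0.08 and, for miR-365-2-5p, -0.99 to 0.25.

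The number of miRNAs called between G93A/G93A and WT/WT (46) was 14 without scaling, 29 with detection on all 8 arrays, 7 with a slide row block, 0 within 1 row (limma, 62 at an unadjusted p under 0.05), and 7 to 57 when arrays were left out. Between G93A/WT and WT/WT (21) it was 12 with quantile normalization, 130 without scaling, 34 with the higher floor, 5 in the authors' values, 0 with detection on all 8 arrays (limma, 103 unadjusted), 37 with detection on 1 array, and 7 to 61. Between G93A/G93A and G93A/WT (57) it was 150 without scaling, 0 with the slide row (limma, 73 unadjusted), and 38 to 122. Of the brown fat and muscle fate list, the 2 called between G93A/G93A and WT/WT became 1 with quantile normalization, no scaling, the lower floor, detection on all 8 arrays or the slide row, 0 within a row, and 1 to 2 without single arrays. Between G93A/WT and WT/WT 0 became 4 without scaling, 1 with the slide row or within it, and 0 to 1. Between G93A/G93A and G93A/WT 2 became 7 without scaling, 1 with the higher floor or detection on all 8 arrays, 0 with the slide row, and 1 to 4.

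No pairing by replicate number was seen. Deviations of same-numbered arrays correlated at -0.35 to 0.21, and those of other arrays at -0.21 to 0.32. With 2 or 3 arrays per group, these correlations cannot exclude a pairing. With the replicate number as a block, miR-193b-3p differed by -0.65 (adjusted p = 0.175), miR-193a-3p by -0.70, miR-365-3p by -0.28 and miR-365-2-5p by 1.60 between G93A/G93A and WT/WT, and miR-365-2-5p by 2.02 between G93A/WT and WT/WT. The block gave 10, 8 and 37 called miRNAs in G93A/G93A minus WT/WT, G93A/WT minus WT/WT and G93A/G93A minus G93A/WT, and 1 list member in the first and the last. Scaling on the percentile over all miRNAs was not run, because that percentile was the undetected value on 3 arrays.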
